A study of Homo sapiens with 4 samples.

Results

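The zinc finger genes of chromosome 19 were taken as the protein-coding genes of the RefSeq annotation of GRCh38 on that chromosome whose symbol is ZNF or ZFP followed by a number. This gave 245 genes, out of 1451 protein-coding genes on the chromosome and 19974 on chromosomes 1 to 22 and X. A peak was assigned to a gene when its summit, the position of highest signal, lay inside the gene or within 5 kb of it. The study profiled H3K4bhb, histone H3 with a beta-hydroxybutyryl group on lysine 4, with ChIP-seq (sequencing of immunoprecipitated chromatin) in HK-2, an established line of human renal tubular epithelium. One condition was hydrogen peroxide (H2O2) and the other H2O2 after pretreatment with sodium beta-hydroxybutyrate (BHBNa), so the H2O2 exposure was common to both. Doses and times are not given in the sources used here, and untreated cells were not analysed here. Each condition had 1 immunoprecipitated (IP) library and 1 control library, which the labels call both IgG and input, and each condition gave 1 peak list, called below the H2O2 list and, for BHBNa with H2O2, the BHBNa list. With 1 IP library per condition there is no replicate check and no test between conditions. Intervals below are 95% exact intervals that cover counting error only.

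Most proteins of this family bind DNA through arrays of C2H2 zinc fingers, and many carry a KRAB domain, which recruits the co-repressor TRIM28 and the methyltransferase SETDB1 to silence chromatin, often at transposable elements. The genes arose largely by tandem duplication, lie in clusters, and in many cell types their bodies carry heterochromatin marks of histone H3. Beta-hydroxybutyrylation of histone lysines is an acylation that rises in cells with the level of the ketone body beta-hydroxybutyrate. One gene the symbol rule takes, ZFP36, encodes tristetraprolin, an RNA-binding protein with another kind of zinc finger.

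The RefSeq promoter table (GRCh38.p14) held 213 of the 245 genes, with the 250 bases before and 50 after the annotated start of each. The promoters of 3 genes are shown as the starts from which distances to summits were measured. ZNF573 had more peaks than any other gene of chromosome 19, and ZNF836 and ZNF404 had the summits nearest to an annotated start in the BHBNa and the H2O2 list. CpG dinucleotides are in capitals, 5′ to 3′ in the direction of transcription.
ZNF573 (chr19:37779537-37779836, minus strand): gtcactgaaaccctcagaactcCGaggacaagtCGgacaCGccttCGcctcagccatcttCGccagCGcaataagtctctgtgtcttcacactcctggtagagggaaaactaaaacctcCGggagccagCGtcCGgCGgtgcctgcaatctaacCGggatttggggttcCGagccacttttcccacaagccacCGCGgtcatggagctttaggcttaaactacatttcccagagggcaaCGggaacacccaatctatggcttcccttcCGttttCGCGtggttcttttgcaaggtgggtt
ZNF836 (chr19:52171572-52171871, minus strand): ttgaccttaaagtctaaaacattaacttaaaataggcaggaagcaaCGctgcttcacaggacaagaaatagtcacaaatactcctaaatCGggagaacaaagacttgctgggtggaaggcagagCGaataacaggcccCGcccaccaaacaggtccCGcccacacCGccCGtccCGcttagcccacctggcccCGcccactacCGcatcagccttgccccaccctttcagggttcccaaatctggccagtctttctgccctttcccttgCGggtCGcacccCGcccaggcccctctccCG
ZNF404 (chr19:43883915-43884214, minus strand): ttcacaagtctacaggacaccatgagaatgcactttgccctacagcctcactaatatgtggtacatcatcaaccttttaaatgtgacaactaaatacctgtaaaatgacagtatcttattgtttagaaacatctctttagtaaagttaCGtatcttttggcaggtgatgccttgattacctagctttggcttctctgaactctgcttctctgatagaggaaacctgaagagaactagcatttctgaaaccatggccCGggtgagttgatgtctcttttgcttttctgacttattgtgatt
The ZNF573 promoter held 18 CpG, the ZNF836 promoter 14 and the ZNF404 promoter 2, against a median of 20 (interquartile range 14 to 26) over the 213 family promoters and 21 (9 to 31) over 972 other promoters of chromosome 19. No summit of either list lay in any of these 3 windows.

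In the H2O2 list 7 of the 245 zinc finger genes had a peak, 2.86% (1.16 to 5.80), where 1.1% of all protein-coding genes of the chromosome did. In the BHBNa list 28 did, 11.4% (7.73 to 16.1), where 5.93% of the chromosome's genes did. Among the other 1206 genes of chromosome 19 the counts were 9 (0.746%, 0.342 to 1.41) and 58 (4.81%, 3.67 to 6.17). The others include genes that overlap members and share their peaks, such as the read-through genes ZNF559-ZNF177 and ZNF816-ZNF321P. The share was higher in the family than among its neighbours in both lists, with intervals that overlapped in the H2O2 list and not in that of BHBNa. Over all protein-coding genes of the genome the shares were higher, 8.73% in the H2O2 list and 17.4% in the BHBNa list. A peak was present in 32 members in either list and in 213 in neither, and the share with a peak in either list over all genes was not computed.

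The zinc finger genes were longer than their neighbours, with a median of 23.1 kb (interquartile range 15.3 to 33.4) against 12.8 kb (6.33 to 25.7), and long genes hold more summits. If the members had, within 10 bins of gene length, the same share with a peak as the other genes of chromosome 19, 1.67 members would have had a peak in the H2O2 list and 16.8 in that of BHBNa. The observed counts were 4.18 (1.68 to 8.62) and 1.67 (1.11 to 2.41) times these values, taking the standardised number as fixed. In the H2O2 list that number rested on 9 other genes with a peak. In each bin from 11.4 to 31.1 kb 0 other genes had one there. The error of so small a base is not in the interval, which is therefore too narrow. In the BHBNa list the standardised number rested on 58 other genes with a peak. Its error is left out of that interval too, whose lower limit of 1.11 is close to 1. With at least 3 IP fragments required at a summit, the ratio of the BHBNa list was 1.49 (0.643 to 2.94), an interval that includes 1. With peaks of a false discovery rate q of at most 0.05 alone, the ratio in the BHBNa list was 1.06 (0.345 to 2.48), from 5 members. The members of 47.1 kb or more had a peak in 9 of 27 cases in the BHBNa list, against 18 of 119 other genes of that length. Among the shortest members, up to 11.4 kb, 0 of 43 had a peak in each list, beside 4 of 537 other genes of that length (0.745%) in the H2O2 list and 7 of 537 (1.30%) in that of BHBNa.

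**Figure D1:**
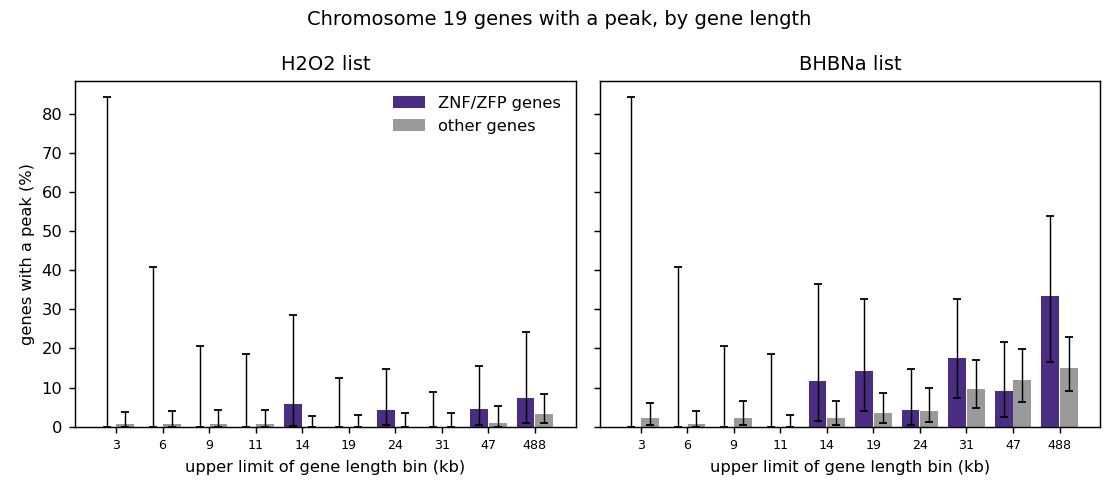
Share of chromosome 19 genes with a peak (%) in 10 bins of gene length, labelled by the upper limit of each bin in kb. Bars show zinc finger genes (purple) and other protein-coding genes (grey) in each list, and error bars are 95% exact binomial intervals. In the longest bin 33.3% of zinc finger genes and 15.1% of other genes had a BHBNa peak, and intervals of the 2 sets overlap in most bins.

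Counted by sequence covered, each summit once, the 8.99 Mb of zinc finger gene windows held 7 summits in the H2O2 list, 0.779 per Mb (0.313 to 1.60), and 29 in the BHBNa list, 3.23 per Mb (2.16 to 4.63). The windows of the other genes of the chromosome, 30.3 Mb outside the former, held 7 and 49 summits, or 0.231 (0.0928 to 0.475) and 1.61 (1.20 to 2.14) per Mb. Those windows include zinc finger genes with symbols of other forms, among them ZSCAN5A with 2 of the 7 H2O2 summits. The density in the zinc finger windows was 3.38 (1.01 to 11.3) times that of the other gene windows in the H2O2 list and 2.0 (1.22 to 3.22) times in the BHBNa list. Without ZNF573 these ratios were 2.91 (0.808 to 10.1) and 1.80 (1.07 to 2.96), and without ZNF536, the longest member at 488 kb, 3.06 (0.850 to 10.6) and 2.04 (1.24 to 3.31). In the H2O2 list the interval then included equal density. Against the sequence of chromosome 19 outside all gene windows, the ratios were 1.25 (0.417 to 3.44) and 1.64 (0.973 to 2.72), whose intervals include 1. That sequence also contains the centromere.

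Chromosome 19 as a whole was poor in H3K4bhb peaks. It held 26 of the peaks of the H2O2 list, 0.444 per Mb, the lowest of 23 chromosomes, and 116 of the BHBNa list, 1.98 per Mb, the second lowest. The 250 ZNF and ZFP genes of other chromosomes had 1.43 (0.863 to 2.24) and 3.62 (2.67 to 4.80) summits per Mb of window. The density at the chromosome 19 genes was 0.543 (0.193 to 1.35) and 0.890 (0.541 to 1.44) times theirs. Olfactory receptor genes, another large family of tandem clusters, had 1.78 and 4.86 summits per Mb, and the chromosome 19 zinc finger genes 0.437 (0.144 to 1.24) and 0.664 (0.384 to 1.15) times that. Every one of these intervals includes 1, so a difference from either family was not detectable with these counts. The windows of all protein-coding genes held 1.80 and 3.72 summits per Mb.

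**Figure D2:**
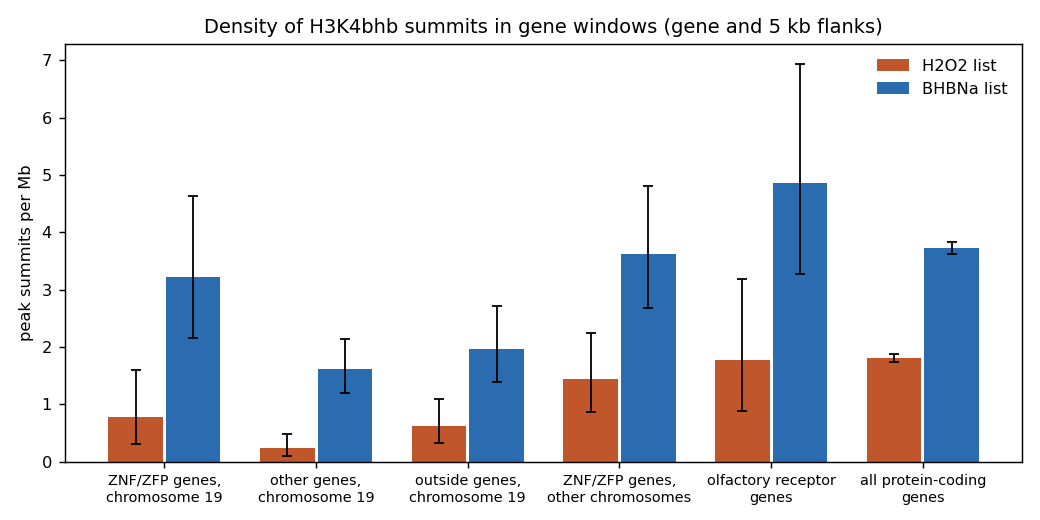
H3K4bhb peak summits per Mb in gene windows (gene and 5 kb flanks) and in chromosome 19 outside them, for the H2O2 list (orange) and the BHBNa list (blue). Error bars are 95% exact Poisson intervals. The chromosome 19 zinc finger genes (0.779 and 3.23 per Mb) stand above the other genes of the chromosome (0.231 and 1.61) and below the mean of all protein-coding genes (1.80 and 3.72). In the BHBNa list the interval of the zinc finger genes (2.16 to 4.63) includes 3.72, so a difference from all genes was not detectable there.

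Between the lists, the zinc finger windows had 4.14 (1.78 to 11.2) times as many summits after BHBNa pretreatment, 29 against 7. Over chromosome 19 the ratio was 4.46 (2.90 to 7.12), with 116 against 26, and over all primary chromosomes 1.84 (1.78 to 1.90). In the windows of the other genes of chromosome 19 it was 7 (3.15 to 18.3), with 49 against 7. At the ZNF and ZFP genes of other chromosomes it was 2.53 (1.46 to 4.55), with 48 against 19. The lists differed in depth: the background level that holds across the genome was 0.274 fragments for the H2O2 list and 0.102 for the BHBNa list. All H2O2 peaks had at least 3 IP fragments at the summit, whereas 19 of the 29 zinc finger peaks of the BHBNa list rested on exactly 2, 65.5% (45.7 to 82.1). With at least 3 fragments required in both lists the zinc finger counts were 7 and 10, a ratio of 1.43 (0.491 to 4.42), and the ratio over primary chromosomes was 0.883 (0.851 to 0.915). That limit could remove peaks from the BHBNa list only. Over the genome-wide background, 3 fragments gave a −log10 p of 3.72 in the H2O2 list and 5.38 in the BHBNa list. The limit was thus stricter in the BHBNa list and did not match the lists on depth. Treatment and depth cannot be told apart in these libraries.

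Of the family, 3 genes had a peak in both lists, ZNF573, ZNF714 and ZNF536. They were the only genes of chromosome 19 that did, since 0 of the 1206 others had one in both. Of those others, 9 carried an H2O2 peak and 58 a BHBNa peak. With so few of the 1206 marked, the 0 cannot set the family apart from its neighbours. The share of all protein-coding genes of the genome with a peak in both lists was not computed. The count of 3 is therefore given without that baseline. In the zinc finger windows 0 of 7 and 0 of 29 peaks shared a base with a peak of the other list, where 1.36% and 0.738% of all peaks did, so counts this small could not show a difference from the whole lists (the intervals reach 41.0% and 11.9%).

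ZNF573, a gene of 41.3 kb on the minus strand (chromosome 19, 37738302 to 37779586), held 1 H2O2 peak and 3 BHBNa peaks. No other gene of the chromosome had more than 2 over both lists. The H2O2 peak (37756801 to 37757084) had a fold enrichment, the authors' ratio of IP to local control at the summit, of 3.89, a q of 0.18 and 4 IP fragments, the highest fold of the family in that list. The BHBNa peaks lay at 37738703 to 37738955, 37751606 to 37751928 and 37755188 to 37755538. Their folds were 3.36, 3.38 and 3.30, each rested on 3 IP fragments, and their q values were 0.158, 0.138 and 0.201. The nearest pair of summits from the 2 lists stood 1.5 kb apart, and the 4 summits spanned 18.2 kb. The local control background was 1.79 to 2.09 times the genome-wide level at the BHBNa peaks and 1.04 times at the H2O2 peak, and the part of that control signal in the peaks was not tested. All 4 summits lay beyond the midpoint of the gene, seen from its start.

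ZNF714, of 42.9 kb on the plus strand (21082203 to 21125094), had an H2O2 peak inside the gene at 21109090 to 21109325, which reached a fold of 3.03 (q of 0.494, 3 fragments). Its BHBNa peak at 21128365 to 21128777 lay 3.63 kb beyond the end of the gene, where the fold was 3.63 (q of 0.0484, 3 fragments). The summits were 19.5 kb apart. ZNF536, known as a zinc finger repressor of neuronal differentiation, stood apart from the clusters and from the other members by its length. Its H2O2 peak (30522158 to 30522506) reached a fold of 3.57 (q of 0.314, 4 fragments) and its BHBNa peak (30697634 to 30697990) one of 2.71 (q of 0.326, 2 fragments), with 175.5 kb between them.

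The other 4 members with an H2O2 peak had none in the BHBNa list. ZNF177 had a peak at 9373382 to 9373835 (fold of 3.64, q of 0.274), inside both ZNF177 and the read-through gene ZNF559-ZNF177. ZNF404 had one at 43880016 to 43880296 (fold of 3.54, q of 0.323). ZNF560 (9475179 to 9475494) and ZNF681 (23743804 to 23744127) had folds of 3.14 and 2.92, each from 3 fragments and with a q of 0.494. No zinc finger peak of the H2O2 list had a q of at most 0.05, a share of 0% whose interval reaches 41.0%, beside 7.23% of all peaks of that list. At that limit 0.0689% of the chromosome's genes and 0.826% of all protein-coding genes carried a peak.

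In the BHBNa list, 5 of the 29 zinc finger peaks had a q of at most 0.05, 17.2% (5.85 to 35.8), against 21.8% (13.7 to 32.0) of the other peaks of chromosome 19 and 15.2% of all peaks of the list. They lay at 5 members, where 1.38% of the chromosome's genes and 3.54% of all protein-coding genes carried a peak at that limit. The first was the ZNF714 peak described above. ZNF723 (22827427 to 22827690), ZNF836 (52168258 to 52168591) and ZNF446 (58485145 to 58485483), which encodes a protein with SCAN and KRAB domains, had the same fold, 3.63, and q, 0.0484, since each rested on 3 fragments over the genome-wide background. ZNF816 (52950227 to 52950478) had a fold of 3.61 with the same q and 3 fragments, and its summit also lay inside the read-through gene ZNF816-ZNF321P. These 5 values sit just inside the limit, with no family peak at a lower q.

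The highest fold of the family in this list was 3.85 at ZNF799 (12385279 to 12385641), 4.60 kb beyond the end of the gene. It rested on 4 fragments, but the local background of 0.299 was above the genome-wide level and its q was 0.0802. ZNF420, a KRAB protein reported to restrain p53, had a peak at 37092056 to 37092369 whose fold was 3.54 (q of 0.0631, 3 fragments). These are the peaks just outside the limit on q. Together with ZNF573 and the members above, 10 peaks of the BHBNa list rested on 3 or 4 fragments, at 8 genes.

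The remaining 19 peaks rested on 2 fragments, all with a q of 0.326. Of these, 12 had a fold of 2.72, which 2 fragments give where the background is at its genome-wide level. They lay at 13 genes, ZNF557, ZNF44, ZNF506, ZNF431, ZNF565, ZNF529, ZNF223, ZNF225, ZNF83, ZNF444, ZNF606 and the overlapping pair ZNF600 and ZNF28, for which a single summit was counted once as a peak and for both as genes. The ZNF83 summit also lay inside the protein-coding gene LOC122539214, that of ZNF529 inside the noncoding RNA gene ZNF529-AS1 and that of ZNF506 inside the pseudogene ZNF56P. The last 7, at ZNF136, ZNF442, ZNF490, ZNF536, ZNF875, ZNF221 and ZNF547, had folds from 2.61 to 2.71. Ties of this kind carry no order among the genes. The median fold of the zinc finger peaks was 3.54 in the H2O2 list and 2.72 in the BHBNa list, beside 3.68 and 2.72 for the other peaks of chromosome 19, and the median widths were 316 and 315 bp beside 286 and 341 bp. Folds are values within each list and were not compared between lists.

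**Figure D3:**
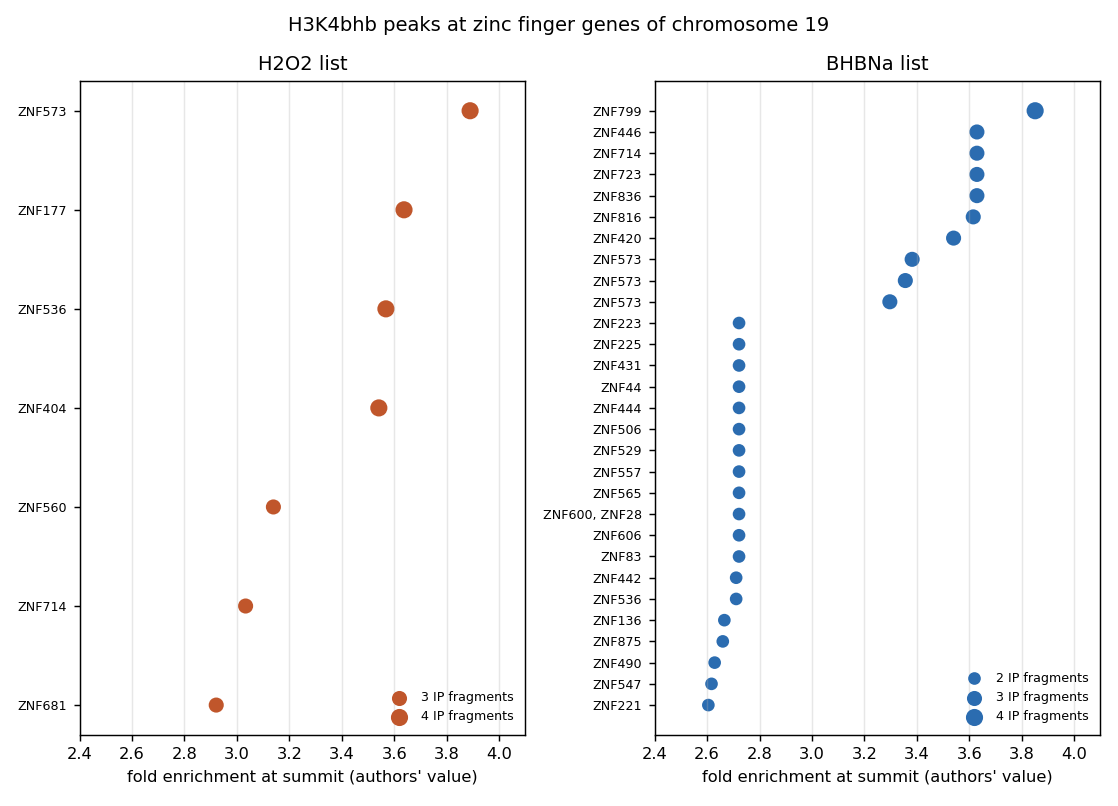
Fold enrichment at the summit (the authors' value) of each of the 7 and 29 peaks at zinc finger genes of chromosome 19, with 1 point per peak and the point size giving the recovered number of IP fragments. H2O2 peaks range from 2.92 at ZNF681 to 3.89 at ZNF573, and BHBNa peaks fall into a group of 10 at 3.30 to 3.85 and a group of 19 at 2.61 to 2.72 that rest on 2 fragments.

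ZNF91 and ZNF93, which bind retroelements, and ZNF274, which recruits SETDB1 to zinc finger genes, had 0 peaks in both lists, as had 213 of the 245 members. These 3 were chosen for mention after their values were seen. At these depths 0 peaks at a gene of typical length says little, since the density in the family windows was at most 3.23 per Mb.

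All 7 H2O2 peaks were inside a gene, 3.84 kb or more from either end. In the BHBNa list 24 of 29 were inside and 5 in the flanks. At the other genes of chromosome 19 of known strand, 2 of 7 and 15 of 50 gene and summit pairs lay in the flanks. Over all protein-coding genes 167 of 2147 and 459 of 4483 did, and a difference was not tested. Within 1 kb of the start of transcription there were 0 of 7 and 0 of 25 summits at members of known strand. The other genes of chromosome 19 had 0 of 7 and 0 of 50, and all protein-coding genes 12 of 2147 (0.559%) and 45 of 4483 (1.00%), so these counts could not show a difference at starts. Within 1 kb of the other end of a gene there were 3 in the BHBNa list, at ZNF565 (442 bp beyond the end), ZNF573 (524 bp inside) and ZNF816 (906 bp inside). These were 3 of 25 summits, beside 2 of 50 at the other genes of chromosome 19 and 88 of 4483 over all protein-coding genes. That difference was not tested. ZNF723, whose start in the promoter table lies inside its annotated span, had its summit 4.73 kb before that start. The summits nearest to a start were that of ZNF836, 3.31 kb downstream of it, and in the H2O2 list that of ZNF404, 3.84 kb downstream.

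With strand known for 25 of the 29 BHBNa peaks, 5 summits lay in the first of 3 equal parts of the gene, 4 in the middle part, 11 in the last part and 5 in the flank beyond the end, with 0 in the flank before the start. The last part and the flank beyond it thus held 16 of 25, 64% (42.5 to 82.0), against 18 of 50 gene and summit pairs, 36% (22.9 to 50.8), at the other genes of chromosome 19 and 34.2% (32.8 to 35.6) over all protein-coding genes. The intervals of the members and of the other genes of the chromosome overlap. Of the 11 summits in the last part, 5 lay just inside its limit, at 67.2% to 69.9% of the gene, in ZNF573, ZNF446, ZNF225, ZNF420 and ZNF442. With the limit at 1/2 of the length the shares were 72% (50.6 to 87.9) at members, 54% (39.3 to 68.2) at the other genes and 49.7% over all genes. With it at 3/4 the shares were 40% (21.1 to 61.3) at members, 34% at the other genes and 26.5% over all genes. Measured from the start in the promoter table in place of the outer span, 13 of 25 summits, 52% (31.3 to 72.2), lay in the last part or beyond, against 34% and 32.3%. The 5 flank peaks were those of ZNF799, ZNF714, ZNF565, ZNF444 and ZNF606, and the last also lay inside the neighbouring gene C19orf18. The share was 63.6% (40.7 to 82.8) without ZNF573, and 7 of 10 (34.8% to 93.3%) among peaks of at least 3 fragments. In the H2O2 list 1 of 7 summits lay in the last part, 14.3% (0.361 to 57.9), against 28.6% at the other genes of chromosome 19 and 32.5% over all genes. The middle part held 5 of 7, 71.4% (29.0 to 96.3), against 1 of 7 and 33.2%, with an interval for the 1 of 7 that reaches 57.9%. The division into 3 parts was chosen after the positions were seen, and the difference was not tested.

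**Figure D4:**
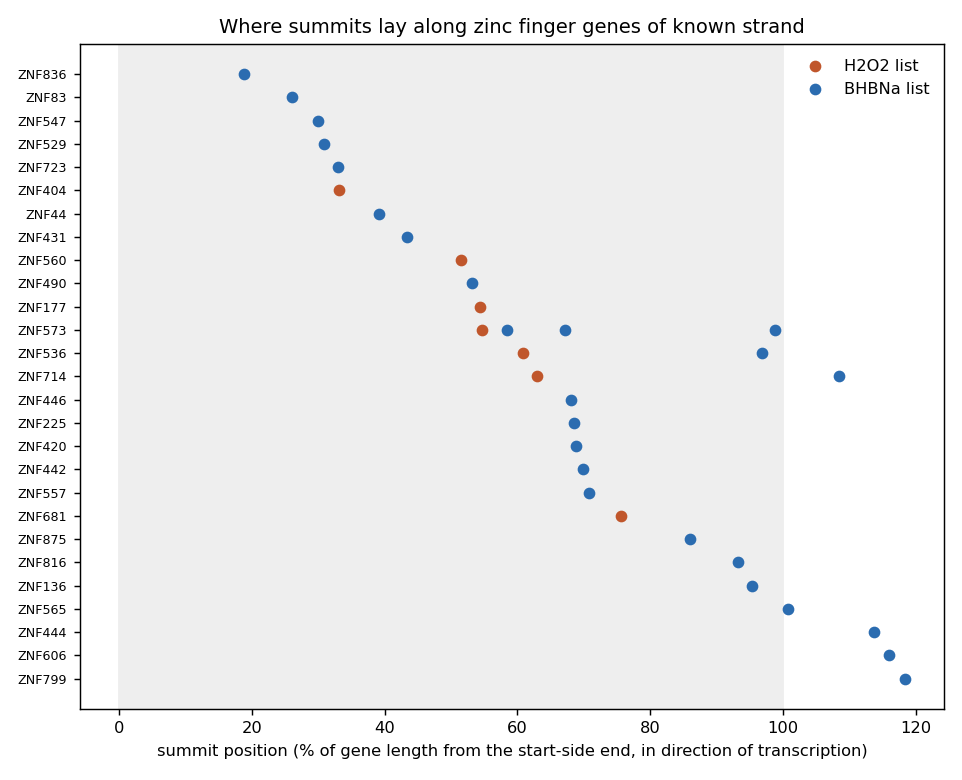
Position of each summit along its zinc finger gene, in % of gene length in the direction of transcription, for genes of known strand. The shaded band is the gene and points right of it lie in the flank beyond its end. Of 25 BHBNa summits (blue), 16 lie in the last of 3 equal parts or beyond it, and of 7 H2O2 summits (orange) 5 lie in the middle part.

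Members within 250 kb of each other formed 12 clusters of 5 or more, which held 226 of the 245 genes. The clusters held 5 of the 7 H2O2 peaks and 27 of the 29 BHBNa peaks, and 3 clusters had none in either list. The cluster from ZNF565 to ZNF573 (36182060 to 37779586, 27 genes) had the most, 1 and 7 peaks, or 0.792 (0.0201 to 4.41) and 5.55 (2.23 to 11.4) per Mb of member window, with 3 of the 7 in ZNF573. The cluster from ZNF653 to ZNF791 (11483429 to 12633834, 25 genes) had 0 and 5 peaks, each at a different gene. The reverse was seen from ZNF317 to ZNF846 (9140397 to 9786160, 11 genes), with 2 and 0 peaks, those of ZNF177 and ZNF560.

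The cluster of the longest span, from ZNF737 to ZNF91 (20530276 to 23395471, 25 genes), had 1 and 3 peaks. The clusters with most members, ZNF264 to ZNF446 (57191500 to 58489533, 41 genes) and ZNF175 to ZNF331 (51571283 to 53580269, 39 genes), had 0 and 3 and 0 and 4. Between clusters, BHBNa densities ran from 0 to 6.39 (2.07 to 14.9) per Mb, and the intervals of all 12 overlapped, so an order among clusters was not detectable.

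**Figure D5:**
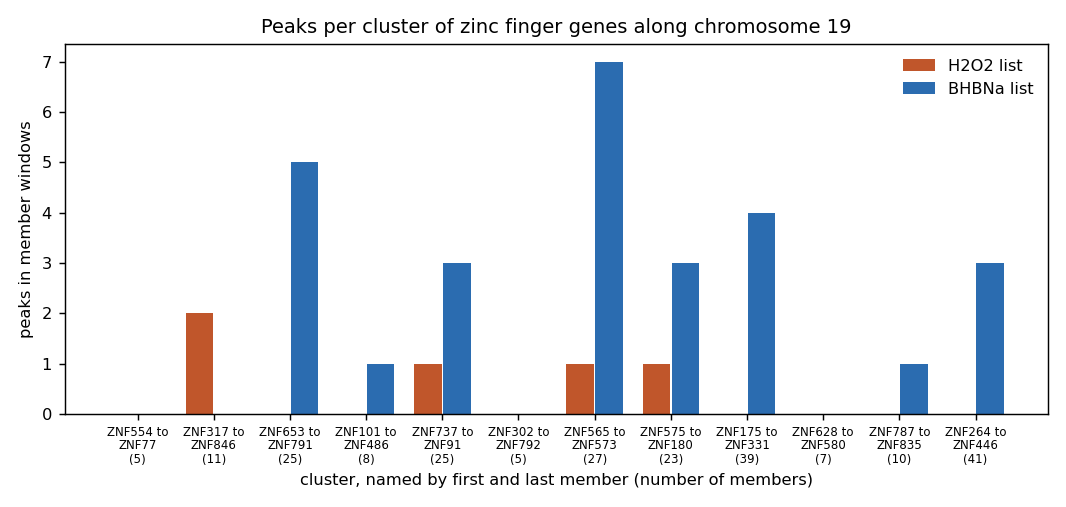
Number of peaks in member windows for each of the 12 clusters, in order along chromosome 19, for the H2O2 list (orange) and the BHBNa list (blue). The cluster ZNF565 to ZNF573 holds the most BHBNa peaks, 7, and ZNF317 to ZNF846 is the only one with more H2O2 peaks (2) than BHBNa peaks (0).

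In sequence, the promoters of the family held one common promoter motif in a larger share than those of other genes of the chromosome, as a description. The motif CCAAT, on either strand, was in 111 of 213, 52.1%, against 37.4% of the other promoters of chromosome 19 and 36.3% of all protein-coding promoters of the same length. The GC box, GGGCGG on either strand, was in 69.0% against 65.6% and 58.5%. Among the 27 members with a peak and a promoter entry, 55.6% held CCAAT, beside 51.6% of the 186 without a peak, and the median CpG counts were 18 and 20. A match is a description of the letters and not of a bound factor.

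A list of 23 co-repressor and heterochromatin genes was also examined. Of these, 2 had an H2O2 peak and 8 a BHBNa peak, where 8.73% and 17.4% of all protein-coding genes did. TRIM28 and SETDB1 had none. ATF7IP, a partner of SETDB1, was the one gene with a peak in both, at folds of 4.48 (q of 0.0665, 7 fragments) and 2.80 (q of 0.334, 3 fragments) and at different positions. CHD3, a remodeller of the NuRD complex, had a fold of 2.95 in the H2O2 list alone. SMARCAD1, a chromatin remodeller, had the highest fold of this list of genes in the BHBNa list, 4.19 with a q of 0.0263 from 4 fragments. CBX5, which encodes the heterochromatin protein HP1 alpha, had peaks of 3.56 (q of 0.0574) and 2.63 there, and ATRX, a remodeller of heterochromatin, had 3 peaks of 2.56 to 2.94. The methyltransferase gene EHMT1, and PPHLN1, MPHOSPH8 and MORC2 of the HUSH silencing pathway, had 1 peak each at 2.63 to 2.72, all from 2 fragments. Gene lengths were not matched for this list.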

How the data were processed

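H3K4bhb ChIP-seq of HK-2 cells gave 1 peak list per treatment. Among the authors' tools were fastp 0.20.1, Bowtie2 2.4.2 and MACS2 2.2.7.1 with build GRCh38, per the submitters' processing notes. Their settings are not given in the sources used here. Each peak came with values deposited by the authors, namely a score, a fold ratio of the summit over background, and −log10 p and −log10 q. The lists held 6251 and 11510 peaks. The lowest −log10 p was 3.003 in the H2O2 list and 3.001 in the BHBNa list. Of all peaks, 7.23% and 15.2% had a q of at most 0.05, so the lists were not limited at that q. The 2 deposited files of a treatment held the same peaks (100% of rows equal, starts 1 bp apart) and were used once. IP fragments and background at each summit were recovered from fold and p, taking the fold as (fragments + 1) over (background + 1) and p as a Poisson tail. All 36 zinc finger peaks matched within 0.001 on the −log10 scale.

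Genes and promoters came from RefSeq (GRCh38.p14), the build of the files. Windows were gene spans and 5 kb. Shares have Clopper-Pearson intervals, densities exact Poisson intervals, and density ratios conditional binomial intervals. No test was made, with 1 library per treatment. Named genes are those with a peak in both lists, a q of at most 0.05, 2 or more peaks in a list, or one of the 10 highest folds, ties included. For other lists every gene with a peak is named. ZFP36, ZNF91, ZNF93, ZNF274 and the members with the lowest BHBNa folds (ZNF221, ZNF547, ZNF490, ZNF875, ZNF136 and ZNF442) were named outside this rule, after their values were seen. Members and lists were chosen with earlier results of these data known. Python 3.11.15, numpy 2.4.6, pandas 2.3.3, scipy 1.17.1 and matplotlib 3.10.9 were used, and the counting was tested on simulated data.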

Additional observations from a re-analysis of the deposited data

How the results depend on the processing

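Values give the H2O2 list first and the BHBNa list second. At a q of at most 0.05, 0 and 5 zinc finger genes had a peak, from 0 and 5 peaks, and the count over its length-standardised value in the BHBNa list was 1.06. With −log10 q limited to 5 or more, 0 and 0 genes and 0 and 0 peaks were left. With at least 3 IP fragments, 8 genes and 10 peaks were left in the BHBNa list. The share with a q of at most 0.05 was then 50% (18.7 to 81.3). That rise was fixed by the limit, since all zinc finger peaks of 2 fragments had a q of 0.326. These smaller counts follow from stricter limits. Density ratios against other gene windows of chromosome 19 stayed above 1 wherever they could be computed, from 2.91 to 4.94 and from 1.41 to 2.41. The interval reached below 1 in the H2O2 list without ZNF536, without ZNF573 and with letter-suffixed symbols added. In the BHBNa list it did so at a q of at most 0.05 (0.388 to 4.29) and with at least 3 fragments (0.958 to 5.84). The length-standardised ratio of the BHBNa list with at least 3 fragments was 1.49 (0.643 to 2.94). Length-standardised ratios ran from 3.60 to 7.4 and from 1.06 to 1.82. Shared zinc finger peaks numbered 0 under the alternatives run, beside 1.36% and 0.738% of all peaks at 1 bp of overlap. Leaving out ZNF536, ZNF573 or ZFP36, leaving out compared genes whose window meets a member's, and the other limits on position, are alternatives added after seeing the data. Of the 29 BHBNa peaks, 19 rested on 2 fragments, and the part of depth in the counts was not tested. No paired analysis was possible because there was a single library in each group, and none could be left out.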

Other observations

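Beside the 245 genes, 23 other zinc finger genes of chromosome 19 were picked by symbols of other forms (ZSCAN, ZIM, ZBTB, KLF, ZNF with a letter suffix and the like). Whether these 23 were all such genes of the chromosome was not checked. In the H2O2 list 1 had a peak and in the BHBNa list 1, where 1.1% and 5.93% of the chromosome's protein-coding genes did. ZSCAN5A, a SCAN domain zinc finger gene, had 2 peaks in the H2O2 list, at 56230969 to 56231242 (fold of 3.13, q of 0.494) and 56366861 to 56367123 (fold of 3.89, q of 0.18, 4 fragments). ZSCAN4, known for its expression in early embryos, had a peak at 57673327 to 57673768 in the BHBNa list (fold of 2.72, 2 fragments).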
